A study of Mus musculus with 9 samples.

Results

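The 9 genes described here were grouped under the handling of vitamin A: Aldh1a1, Aldh1a2, Aldh1a3, Aldh1a7, Retsat, Dhrs3, Rdh10, Rbp4 and Rarb. They were taken by gene symbol from the array values, each from a probe set with exactly 1 symbol, and all 9 of the 19938 genes measured in this way were found, each with 1 probe set. The arrays compared whole kidneys of female wild type mice on a mixed FVB/C57BL6 background, 4 mice at 14 weeks and 5 mice at 96 weeks, with no treatment in either group. The groups thus shared sex, genotype and background and differed in age. The study asked which transcripts change in the aging kidney. The 9 genes were selected on their array values, with the difference between the ages already known, and their values are therefore given as a description and without a test. Tests are given for other genes of the pathway.

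Vitamin A circulates as retinol, which is carried in plasma by retinol binding protein and taken up from the filtrate by the proximal tubule. Inside the cell retinol is first oxidised reversibly to retinaldehyde by short-chain dehydrogenases such as Rdh10, while Dhrs3 runs the step backwards. Aldh1a1, Aldh1a2 and Aldh1a3 then oxidise retinaldehyde irreversibly to retinoic acid. Retinoic acid binds nuclear receptors of the Rar and Rxr families and is cleared by enzymes of the Cyp26 family. Retsat takes retinol out of this route by saturating it to dihydroretinol. In the kidney retinoic acid is known for its part in the branching of the ureteric bud and in the response of tubules to injury.

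Promoter sequences of the genes on which the results turn are shown here, because Aldh1a1 and Aldh1a7 lie close together on the genome and share much of theirs, and because Rarb carries a known type of response element. The RefSeq table (GRCm38.p6) held promoter windows for 7 of the 9 genes, from 250 bases before the start to 50 after it. Aldh1a3 and Rdh10 had no entry. The bases before the start are printed 5′ to 3′ on the strand of the gene. Aldh1a1 is at chr19:20601718-20601967 on the plus strand, Aldh1a7 at chr19:20727557-20727806 on the minus strand, Aldh1a2 at chr9:71215539-71215788 on the plus strand and Rarb at chr14:16575477-16575726 on the minus strand. Capitals mark the octamer ATGCAAAT in the Aldh1a genes and the repeated hormone receptor motif in Rarb.
Aldh1a1: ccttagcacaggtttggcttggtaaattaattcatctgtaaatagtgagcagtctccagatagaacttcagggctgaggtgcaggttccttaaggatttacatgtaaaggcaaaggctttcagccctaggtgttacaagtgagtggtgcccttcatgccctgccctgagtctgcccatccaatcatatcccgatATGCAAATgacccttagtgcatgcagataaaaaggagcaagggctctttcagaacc
Aldh1a7: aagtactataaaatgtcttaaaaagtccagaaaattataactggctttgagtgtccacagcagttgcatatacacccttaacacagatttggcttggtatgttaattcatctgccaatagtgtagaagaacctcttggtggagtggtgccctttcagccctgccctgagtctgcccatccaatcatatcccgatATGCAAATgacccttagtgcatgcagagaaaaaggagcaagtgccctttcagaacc
Aldh1a2: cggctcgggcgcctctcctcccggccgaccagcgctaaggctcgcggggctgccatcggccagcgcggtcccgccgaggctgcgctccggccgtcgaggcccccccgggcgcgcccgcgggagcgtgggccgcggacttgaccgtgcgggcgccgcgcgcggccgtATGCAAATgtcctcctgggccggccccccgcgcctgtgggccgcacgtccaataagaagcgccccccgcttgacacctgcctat
Rarb: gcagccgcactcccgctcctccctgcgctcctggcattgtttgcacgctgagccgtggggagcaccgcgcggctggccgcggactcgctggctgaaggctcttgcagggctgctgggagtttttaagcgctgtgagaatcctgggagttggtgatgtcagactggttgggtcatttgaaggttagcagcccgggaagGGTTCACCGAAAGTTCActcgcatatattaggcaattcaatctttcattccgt

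Over these stretches Aldh1a1 and Aldh1a7 had the same base at 75.9% of 232 aligned positions. They shared an unbroken run of 65 bases at the same place in both, from position -94 to -30 before the start, which held the octamer at -56 to -49. Aldh1a2 matched Aldh1a1 at 57.6% of 198 aligned positions, and the longest run shared between the 2 was 10 bases, again around the octamer. Bases set against gaps were not counted and no unrelated promoters were aligned, so the 57.6% is not read as likeness. The motif ATGCAAAT, searched on both strands after these sequences had been seen, was found in 1.74% of the 32851 promoter windows of this length. Aldh1a1 had a second window, at another start, without it. The probe sequences of the array were not used here, so that signal shared between Aldh1a1 and its near copy Aldh1a7 was not tested, and the value of Aldh1a7 is uncertain for this reason.

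Values are RMA log2 expression, so that a difference of 1 stands for a 2-fold change of signal, and levels of different genes cannot be set against each other on this scale. At 96 weeks limma called 860 of the 19938 genes higher (4.31%) and 479 lower (2.40%), at an adjusted p under 0.05. When quantile normalization was run again over these genes, it called 484 higher and 505 lower. In 7.49% of the genes every 96 week old kidney lay above every 14 week old kidney, and in 5.79% every one lay below. The label of whole kidney was checked on markers of its main segments. Lrp2 of the proximal tubule (mean 12.69 at 14 weeks and 12.68 at 96 weeks) and Umod of the thick ascending limb (mean 12.85 at both ages) were above percentile 99 of level. Whether a group was higher because more cells of a type were present or because each cell held more RNA cannot be told apart in whole kidneys. The sources used here do not say whether mice shared a litter or cage.

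As a description, the genome-wide fit marked 3 of the 9 genes as higher at 96 weeks (Aldh1a1, Aldh1a2 and Retsat), where it marked 4.31% of all genes, and none as lower, where it marked 2.40%. Every 96 week old kidney lay above every 14 week old kidney in 4 of the 9, these 3 and Dhrs3, against 7.49% of all genes. In none of the 9 did every 96 week old kidney lie below, against 5.79%. The median difference of the 9 was 0.43 on the log2 scale, against -0.03 over all genes. These counts follow from how the genes were picked, and nothing is read from them.

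**Figure D1:**
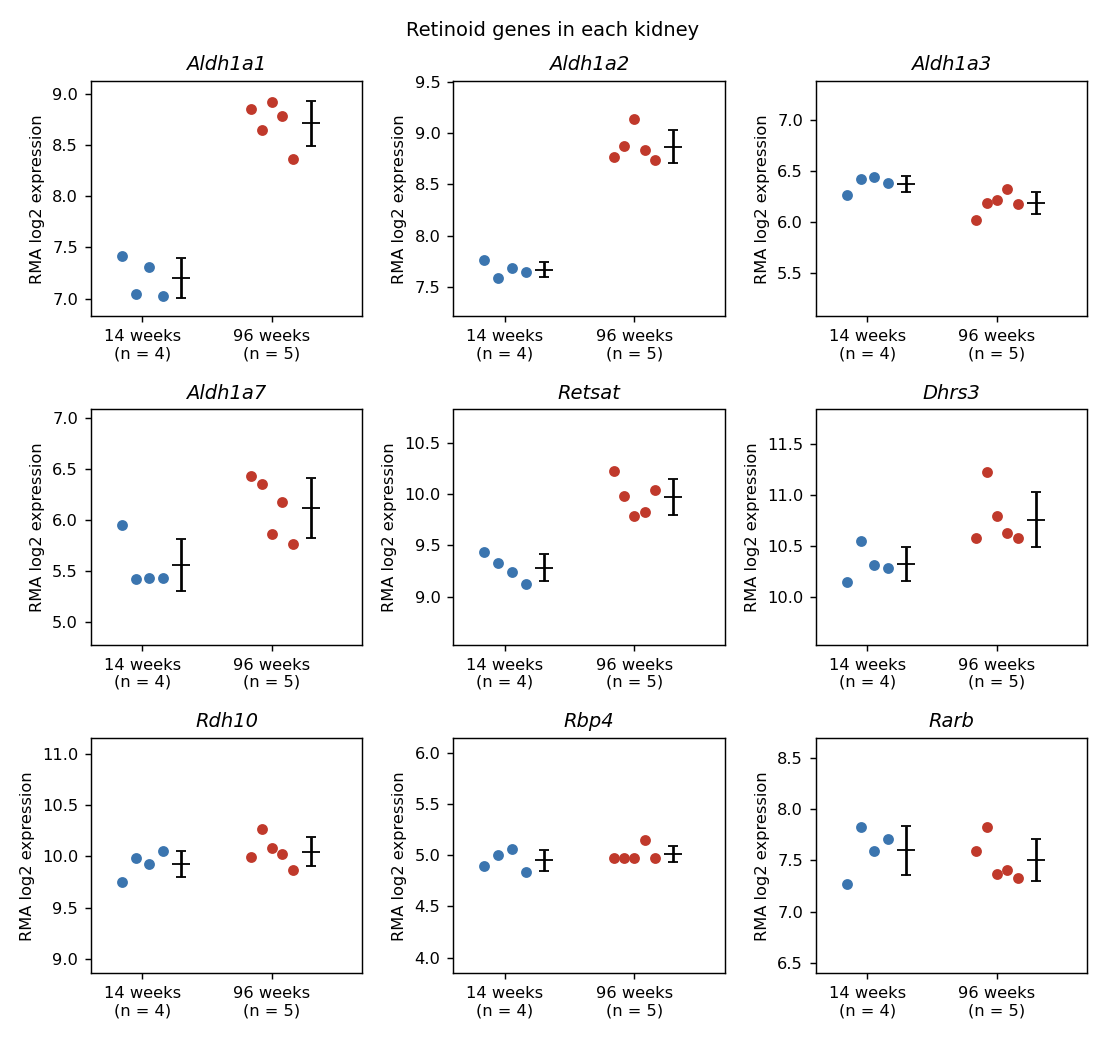
RMA log2 expression (y axis) of the 9 retinoid genes in each kidney at 14 weeks (blue, n = 4) and 96 weeks (red, n = 5). Points are mice in the order of their replicate number, the black bar is the mean with 1 SD, and all panels span the same log2 range. Aldh1a1 and Aldh1a2 show a wide gap between the ages, Retsat and Dhrs3 a narrow one, and the other genes overlap.

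Aldh1a1, which makes retinoic acid from retinaldehyde in the cytosol, read 7.42, 7.04, 7.31 and 7.03 in the 14 week old kidneys (replicates 1 to 4). In the 96 week old kidneys (replicates 1 to 5) it read 8.85, 8.65, 8.92, 8.79 and 8.36. The lowest old kidney thus lay 0.95 above the highest young one, and the groups did not overlap. The difference was 1.51 on the log2 scale (standard error 0.12), a 2.86-fold higher signal, and it was number 19 among all genes ordered from the largest rise downwards. The spread was similar at both ages, with an SD of 0.19 at 14 weeks and 0.22 at 96 weeks.

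Aldh1a2, the Aldh1a enzyme that makes most retinoic acid in the embryo, read 7.76, 7.58, 7.68 and 7.65 at 14 weeks. At 96 weeks it read 8.77, 8.87, 9.14, 8.83 and 8.74. The groups were 0.98 apart, and replicate 3 at 96 weeks was the highest for this gene as it was for Aldh1a1. Replicate 5 was the lowest of the old kidneys for both genes. The difference was 1.20 (standard error 0.082), a 2.30-fold higher signal. The rise of Aldh1a2 was number 35 in the same order.

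Aldh1a7, a close relative of Aldh1a1 found in rodents, read 5.95, 5.43, 5.44 and 5.43 at 14 weeks and 6.43, 6.35, 5.87, 6.18 and 5.77 at 96 weeks. The groups overlapped through replicate 1 at 14 weeks, which lay above replicates 3 and 5 at 96 weeks. The difference was 0.56 (standard error 0.16). Without replicate 1 at 14 weeks it was 0.69. The order of the kidneys differed in part from that of Aldh1a1. Replicate 3 at 96 weeks was the highest old kidney for Aldh1a1 and the second lowest for Aldh1a7. For both genes replicate 1 was the highest young kidney and replicate 5 the lowest old one.

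Aldh1a3, the remaining enzyme of the group, read 6.26, 6.42, 6.44 and 6.38 at 14 weeks and 6.02, 6.18, 6.22, 6.32 and 6.18 at 96 weeks. In 4 of the 5 old kidneys it was below the lowest young one, and replicate 4 at 96 weeks overlapped with them. The difference was -0.19 (standard error 0.067), opposite in sign to that of the other Aldh1a genes.

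Retsat, the retinol saturase, read 9.44, 9.33, 9.24 and 9.13 at 14 weeks. At 96 weeks it read 10.23, 9.99, 9.78, 9.83 and 10.04. The groups were separated by 0.35, and the difference was 0.69 (standard error 0.097), a 1.61-fold higher signal. Its order among the old kidneys was unlike that of Aldh1a2, since replicate 3, the highest for Aldh1a2, was the lowest for Retsat. Without replicates 3 and 4 at 96 weeks the difference of Retsat was 0.80, while those of Aldh1a1 and Aldh1a2 were 1.42 and 1.13.

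Dhrs3, which reduces retinaldehyde back to retinol, read 10.15, 10.55, 10.32 and 10.29 at 14 weeks and 10.58, 11.22, 10.79, 10.63 and 10.57 at 96 weeks. The groups did not overlap, but by only 0.02, and replicate 2 at 96 weeks stood above the other old kidneys. The difference was 0.43 (standard error 0.13). Without replicate 2 at 96 weeks it was 0.32. Rdh10, which runs the opposite step, read 9.75 to 10.05 at 14 weeks and 9.87 to 10.27 at 96 weeks. Its groups overlapped, with 2 of 5 old kidneys above the highest young one, and the difference was 0.12 (standard error 0.086).

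Rbp4, the gene of plasma retinol binding protein, read 4.84 to 5.06 at 14 weeks and 4.98 to 5.15 at 96 weeks. It was the dimmest gene of the group, at percentile 20.7 of mean level over all genes, whereas the other 8 lay above percentile 30. Replicates 1, 2, 3 and 5 at 96 weeks held exactly the same value, 4.9756, for Rbp4. Such sharing was common in the deposited table, since in 57.3% of the genes at least 2 arrays held 1 value to all digits given, and in 16.1% at least 4. The difference of Rbp4 was 0.06 (standard error 0.063), and signal over background was not given, so that a dim gene could not be told from an absent one.

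Rarb, the receptor gene that retinoic acid itself switches on, read 7.27, 7.82, 7.59 and 7.71 at 14 weeks. At 96 weeks it read 7.59, 7.82, 7.37, 7.41 and 7.33. The groups overlapped widely and the difference was -0.09 (standard error 0.13). Within the old group replicate 2 was the highest kidney for Rarb, Dhrs3 and Rdh10 alike, and replicate 5 was the lowest for all 3. Within the young group replicate 1 was the lowest for all 3. This order was in part shared by the marker means given below. Replicate 2 was also the highest old kidney for the proximal tubule mean (11.86) and the thick ascending limb mean (11.32), while replicate 5 was the lowest for neither. Among young kidneys replicate 1 was the lowest for the thick ascending limb mean (11.16) but the highest for the proximal tubule mean (11.69).

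The element marked in the Rarb promoter above lies at positions -53 to -37 and reads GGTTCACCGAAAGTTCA. It is a direct repeat of the hormone receptor motif with a spacer of 5 bases, called DR5, which is the element through which retinoic acid receptors are best known to act. Searched on both strands, DR5 was found in 32 of the 32851 promoter windows (0.0974%). One of the others belonged to Cyp26a1, the main enzyme of retinoic acid breakdown, at -32 to -16 on the opposite strand. Repeats with a spacer of 1 base or 2 bases (DR1 and DR2) were found in 0.222% and 0.268% of the windows, and none of the 3 types in another window of the 7 genes that had one. Of 31 genes with a DR5, 11 were measured, Rarb among them. In limma 0 of these passed and 4 were under 0.05 before adjustment, against 5692 of all 19938 genes. The methods' t-test passed 0 of the 11 after Benjamini-Hochberg adjustment. The median difference of the 11 was -0.10, against -0.03 over all genes. Cyp26a1 read 4.74 to 5.11 at 14 weeks and 4.99 to 5.13 at 96 weeks, with a difference of 0.04 (standard error 0.078, adjusted p = 0.73 from limma). It was dim, at percentile 21.3 of mean level over all genes, so that, as for Rbp4, it could not be told from an absent gene. A match to a motif is a description of the letters in these windows and not a site of binding.

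Other genes of the pathway were taken from 6 lists, and 83 of the 92 listed genes were measured. Rarres2, Rdh11 and Cd36 rose at 96 weeks (3.61%, against 4.31% of all genes) and Ces1d fell (1.20%, against 2.40%), at an adjusted p under 0.05 from limma. The other 79 did not pass, and the median of the 83 was -0.03, as over all genes. Of the 83, 23 lay below percentile 30 of mean level, where a dim gene could not be told from an absent one. After Benjamini-Hochberg adjustment the methods' t-test passed 0 of the 83. At the methods' own threshold, which is on fold change and unadjusted p, it called 1 of them, Ces1d.

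**Figure D2:**
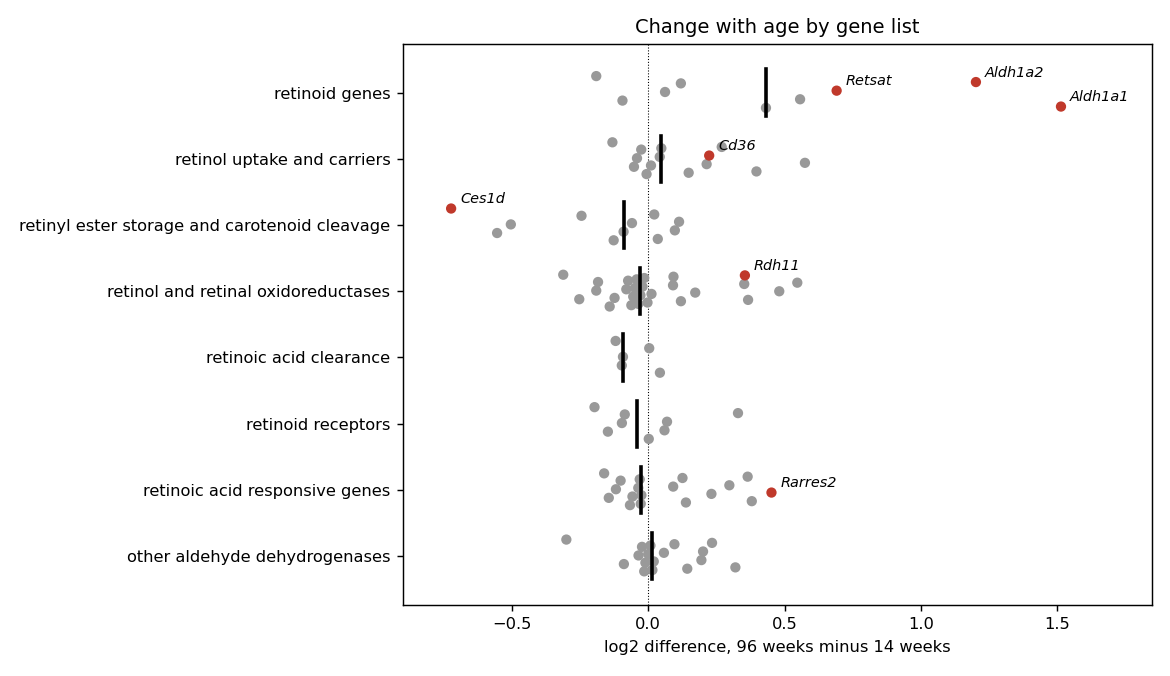
Log2 difference (x axis, 96 weeks minus 14 weeks) of every measured gene in the group of 9 retinoid genes (top row), in 6 lists of other retinoid genes and in the other aldehyde dehydrogenases. Genes called by limma (adjusted p under 0.05) are red, all others grey, and a black bar marks each median. The top row is a description, since its genes were picked on these values. Outside the top row the red points are Cd36, Ces1d, Rdh11 and Rarres2, and the list medians lie between -0.09 and 0.05.

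Among genes of retinol uptake and carriage, 1 of 14 measured was higher (7.14%, against 4.31% of all genes) and none was lower. Cd36, a scavenger receptor that takes up fatty acids and carotenoids, rose by 0.22 (adjusted p = 0.040 from limma, standard error 0.055) and lay higher in every old kidney. It no longer passed when any 1 array was left out, except for replicate 3 at 96 weeks (adjusted p up to 0.11 over all alternatives). Crabp1, which binds retinoic acid in the cytosol, also lay higher in every old kidney but did not pass (0.21, adjusted p = 0.086 from limma). Its groups were only 0.006 apart, and replicates 1, 3 and 5 at 96 weeks held the same value, 6.6966. Crabp2 had a difference of -0.13 (adjusted p = 0.43 from limma). Stra6, the receptor of retinol binding protein, had a difference of 0.05 (adjusted p = 0.70 from limma). Its relative Stra6l had one of 0.27 (adjusted p = 0.080 from limma). Megalin (Lrp2), which retrieves retinol binding protein from the filtrate, differed by -0.01 (standard error 0.069). Transthyretin (Ttr), its partner in plasma, had a difference of 0.57 with a standard error of 0.40.

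Among 11 measured genes of retinyl ester storage and carotenoid cleavage, Ces1d was lower (9.09%, against 2.40% of all genes) and none was higher. Ces1d, a carboxylesterase that can hydrolyse retinyl esters, read 10.78, 10.26, 10.36 and 10.02 at 14 weeks and 9.85, 9.98, 9.55, 9.28 and 9.51 at 96 weeks. It fell by 0.72 (standard error 0.17, adjusted p = 0.035 from limma), and every old kidney lay below every young one. Its relative Ces1f lay below in every old kidney as well but did not pass (-0.55, adjusted p = 0.15 from limma), and probes of these related genes may share signal. Without replicate 1, 2 or 3 at 14 weeks, or replicate 3, 4 or 5 at 96 weeks, Ces1d did not pass (adjusted p up to 0.11 over all alternatives). Bco1, which cleaves beta-carotene to retinaldehyde, had a difference of -0.13 (adjusted p = 0.135 from limma). Lrat, which makes retinyl esters, had a difference of 0.11 (adjusted p = 0.31 from limma).

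Among 27 measured oxidoreductases of retinol and retinaldehyde, 1 was higher (3.70%, against 4.31% of all genes) and none was lower. Rdh11, which like Dhrs3 favours the reduction of retinaldehyde, read 6.41, 6.38, 6.08 and 6.31 at 14 weeks and 6.55, 6.80, 6.54, 6.73 and 6.63 at 96 weeks. It rose by 0.35 (adjusted p = 0.032 from limma, standard error 0.081) with no overlap between the ages. Without replicate 2, 3 or 4 at 14 weeks, or replicate 2, 4 or 5 at 96 weeks, it did not pass (adjusted p up to 0.088 over all alternatives). Dhrs7 came next in order of p, with a difference of 0.35 (adjusted p = 0.056 from limma), followed by Rdh19 with 0.37 (adjusted p = 0.065 from limma). Adh1, an alcohol dehydrogenase that also oxidises retinol, had a difference of -0.31 (adjusted p = 0.15 from limma), and Aldh8a1, which oxidises 9-cis-retinaldehyde, of -0.01 (standard error 0.079).

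No gene of retinoic acid clearance and no other retinoid receptor passed. Before adjustment 0 of the 5 clearance genes and 3 of the 8 receptor genes were under 0.05 in limma. Over all 19938 genes this held for 5692. The methods' t-test passed 0 in both lists. Below percentile 30 of mean level lay 2 of the 5 clearance genes and 2 of the 8 receptor genes. Cyp26b1 had a difference of -0.12 (adjusted p = 0.41 from limma). Cyp2s1, another enzyme of this list, differed by -0.10 (adjusted p = 0.31 from limma). The receptor gene Rarg was lower in every old kidney but did not pass (-0.20, adjusted p = 0.12 from limma), and Rara differed by -0.10 (adjusted p = 0.57 from limma). Rorb differed by -0.15 and the fatty acid receptor gene Ppard by 0.33 (both with an adjusted p of 0.15 from limma). Rxra and Rxrb, the shared partners of nuclear receptors, differed by 0.06 and 0.00 (standard errors 0.049 and 0.059).

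Of 18 measured genes known to respond to retinoic acid, 1 was higher (5.56%, against 4.31% of all genes) and none was lower. Rarres2, the gene of the chemoattractant chemerin, read 8.19, 8.53, 8.43 and 8.40 at 14 weeks and 8.68, 8.86, 8.94, 8.97 and 8.76 at 96 weeks. It rose by 0.45 (adjusted p = 0.015 from limma, standard error 0.083), lay higher in every old kidney, and passed in 18 of 19 alternatives, the exception being the methods' t-test. Tgif1, a repressor of retinoid and Tgf beta signals, lay higher in every old kidney but did not pass (0.38, adjusted p = 0.058 from limma). The adhesion molecule gene Icam1 had a difference of 0.36 (adjusted p = 0.089 from limma). The list median was -0.03, the same as over all genes.

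The other aldehyde dehydrogenases did not move with Aldh1a1 and Aldh1a2 past the threshold. Of 17 measured genes 0 passed in limma and 3 were under 0.05 before adjustment, against 5692 of all 19938 genes. The methods' t-test passed 0, and the list median was 0.02. Aldh2, the mitochondrial enzyme that oxidises acetaldehyde, was closest, higher in every old kidney by 0.32 (standard error 0.088, adjusted p = 0.056 from limma). Without replicate 4 at 96 weeks Aldh2 passed, with a difference of 0.36. Aldh4a1, which acts in proline breakdown, differed by 0.23 (adjusted p = 0.13 from limma). The differences of the 17 ran from -0.30 (Aldh3b3, adjusted p = 0.16 from limma) to that of Aldh2, below the 1.20 of Aldh1a2.

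Cell type markers were set beside the retinoid genes, since whole kidneys hold many cell types. The 7 measured markers of the thick ascending limb had a mean level of 11.16 to 11.27 at 14 weeks. At 96 weeks it was 11.04 to 11.32, and none of the markers passed. Kcnj1 lay lower in every old kidney (-0.29, adjusted p = 0.063 from limma), and none lay higher in every one. Relative to the mean of the 7, Aldh1a1 was 1.55 higher at 96 weeks, again without overlap. The mean of the 8 proximal tubule markers ranged from 11.66 to 11.69 at 14 weeks and from 11.49 to 11.86 at 96 weeks. None of the 8 passed. Slc5a12 lay lower in every old kidney (-0.34, adjusted p = 0.10 from limma) and Miox higher (0.13, adjusted p = 0.16 from limma). The adrenal cortex, which also expresses Aldh1a1 strongly, lies next to the kidney. Its 7 measured markers had a mean of 5.01 to 5.18 at 14 weeks and 5.06 to 5.14 at 96 weeks, with none past the threshold. The remaining lists of kidney and neighbouring cells overlapped between the ages. Those of the distal tubule and collecting duct, the inner medulla and urothelium, fibroblasts and adipocytes had 0 genes past the threshold. Calb1 of the distal tubule lay lower in every old kidney (-0.47, adjusted p = 0.12 from limma). The podocyte list had 1 of 4 lower and the hepatocyte list 1 of 5 higher, against 2.40% and 4.31% of all genes. The mean of the 6 mesothelial markers ranged from 6.82 to 6.93 at 14 weeks and from 6.87 to 6.99 at 96 weeks.

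Some markers of immune cells were also higher at 96 weeks. The mean of 8 macrophage and dendritic cell markers was 6.52 to 6.63 at 14 weeks and 6.82 to 7.66 at 96 weeks, and 2 of the 8 passed (Csf1r and Tyrobp). The mean of 6 plasma cell markers was 6.08 to 6.19 at 14 weeks and 7.42 to 8.12 at 96 weeks. Of the 6, 2 were called higher (Jchain and Igha, 33.3%, against 4.31% of all genes). Both lists were highest in replicates 3 and 4 at 96 weeks, the 2 old kidneys in which Retsat was lowest. Relative to the macrophage and dendritic cell mean, Aldh1a1 was 0.92 and Aldh1a2 0.61 higher at 96 weeks, without overlap, while Retsat was 0.10 higher with overlap. Relative to the plasma cell mean, which differed by 1.62 between the ages, none of the 3 genes was higher, since Aldh1a1 had a difference of -0.11 with overlap, Aldh1a2 of -0.42 and Retsat of -0.93. That mean was carried by Jchain (5.02) and Igha (3.06), whereas the differences of the other 4 markers ran from 0.09 (Sdc1) to 1.03 (Mzb1) and the median of the 6 was 0.69. Replicates 1, 2 and 5 at 96 weeks also had plasma cell means of 7.42 to 7.58. The part of immune cells in these values was not tested.

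**Figure D3:**
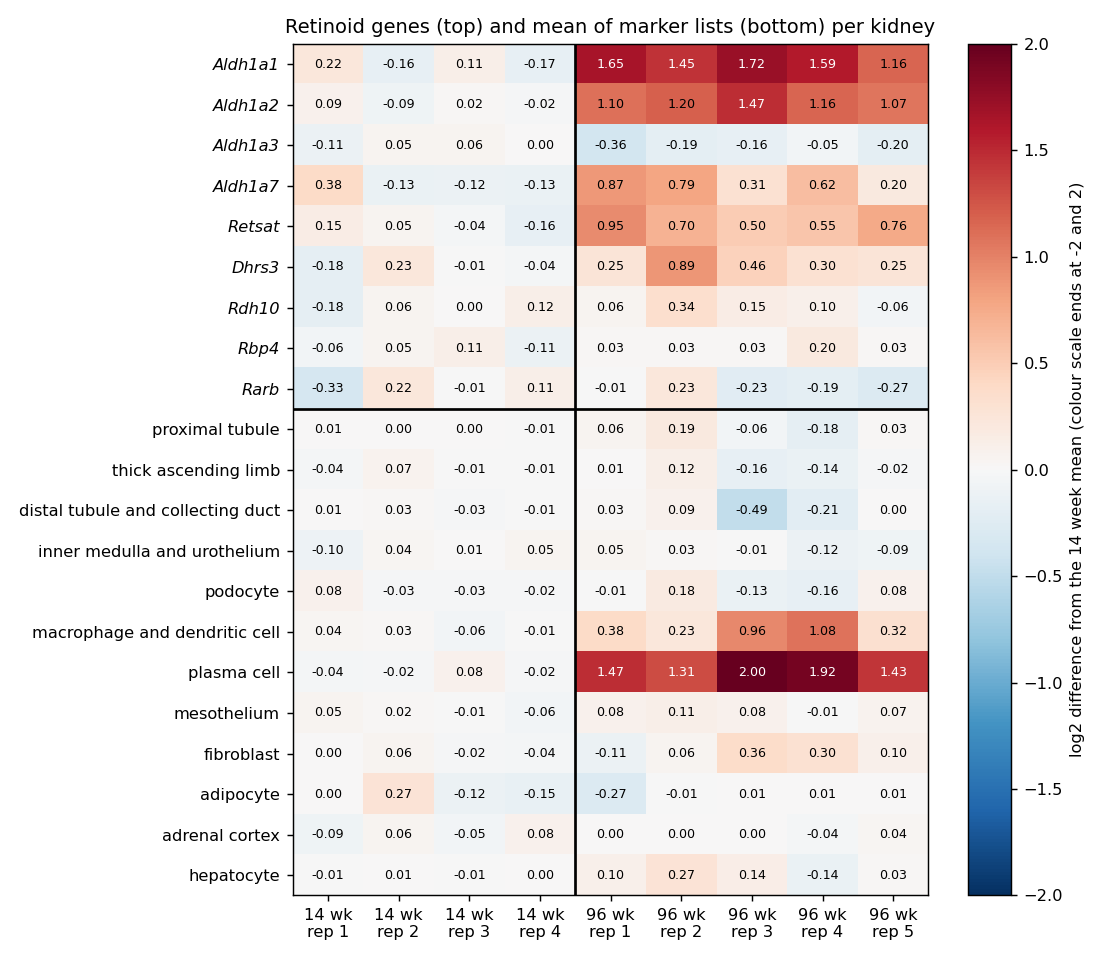
Log2 difference of each kidney from the 14 week mean (colour and printed value), for the 9 retinoid genes above the line and for the mean of 12 marker lists under it. Columns are the 4 kidneys at 14 weeks and the 5 at 96 weeks. The rows of Aldh1a1 and Aldh1a2 are red in all 5 old kidneys, at 1.16 to 1.72 and 1.07 to 1.47. The plasma cell row is red in all 5 as well, at 1.31 to 2.0, and the macrophage row runs from 0.23 to 1.08. Both of these marker rows are highest in replicates 3 and 4, the macrophage row at 0.96 and 1.08.

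Genes whose values ran most like those of Aldh1a1 over the 9 arrays were Aldh1a2, Jchain, Selenow, S100a16 and Tmem208, with a Pearson r of 0.979 to 0.983. For Aldh1a2 they were Jchain, Aldh1a1, Igha, Rpl28 and Rras, with r of 0.977 to 0.987. The 9 arrays fall into 2 ages, and a large difference between the ages alone gives a high r, so these values are a description. With each age centred on its own mean, r with Aldh1a1 ran from 0.56 (Jchain) to 0.77 (Selenow) over its 5 genes. For Aldh1a2 it was 0.82 with Rras, 0.81 with Igha, 0.64 with Aldh1a1, 0.59 with Jchain and 0.09 with Rpl28.

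**Figure D4:**
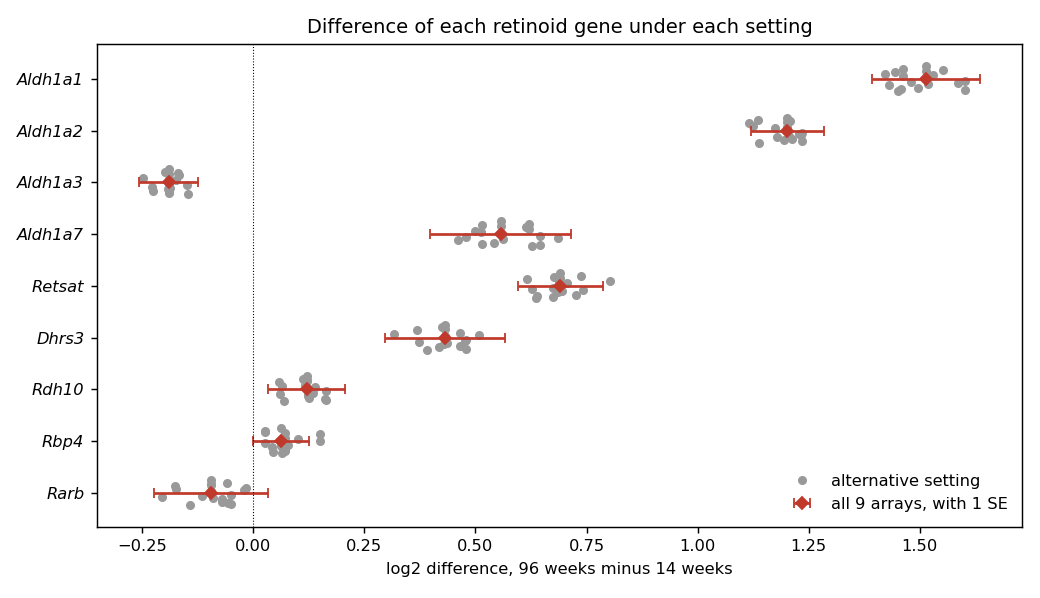
Log2 difference (x axis, 96 weeks minus 14 weeks) of each retinoid gene over all 9 arrays (red, with 1 standard error) and under each alternative setting (grey). Aldh1a1 stays between 1.42 and 1.60 and Aldh1a2 between 1.11 and 1.23, while Rarb lies between -0.20 and -0.02.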

How the data were processed

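RNA of whole kidneys was hybridised to Affymetrix Mouse Gene ST arrays, 1 per mouse, so that p-values measure the spread between mice. Per the methods, the authors summarised their scans by RMA, with quantile scaling, in Affymetrix Power Tools 1.12.0, and deposited log2 values for 35557 probe sets. The array annotation gave 1 symbol for 21789 of them, several for 1621 and none for 12147. For the 999 genes with several probe sets the brightest was used. Quantile scaling forces equal distributions on the arrays, so that only changes relative to other genes are seen. Ages were compared with limma 3.58.1 (lmFit, eBayes, two-sided) in R 4.3.3, with Benjamini-Hochberg adjustment over 19938 genes and no filter on dim genes. The fit was tested on simulated data. Tables and figures were made in Python 3.11.15. The members, lists and tests were chosen with earlier results of these data known.

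The genes named were the 9 members, every gene of a pathway or family list past the threshold, the 3 with the smallest p in each such list, preset genes tied directly to a member, the 5 genes most like Aldh1a1 and Aldh1a2, and defining markers of cell types that moved with a member. Alternatives were the methods' t-test, array weights, a filter at percentile 30 of level, other scalings, other choices of probe set, a replicate block, and arrays left out. Probe sets with several symbols, and 9 listed retinoid genes that had none with a single symbol, were left out. The number of arrays limits the precision. The methods give 5 mice per age, and 4 arrays of 14 week old mice were analysed here.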

Additional observations from a re-analysis of the deposited data

Results flagged for a closer look

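Among 82 groups of values (41 genes at 2 ages), 7 held a kidney far from the others of its age by Dixon's criterion, where chance gives about 1 in 20. For Aldh1a7, replicate 1 at 14 weeks read 5.95, while the other 3 young kidneys lay between 5.43 and 5.44. For Rbp4, replicate 4 at 96 weeks read 5.15, while the other 4 shared the value 4.98. Replicate 4 at 96 weeks was also low for Rarg (6.32, others 6.58 to 6.65) and for Rxrb (6.16, others 6.35 to 6.40). Rxrb was low in replicate 1 at 14 weeks too (6.24, others 6.34 to 6.36). Ces1f was low in replicate 3 at 96 weeks (8.67, others 9.60 to 9.94). Lrp2 read 12.69 in replicate 1 at 14 weeks, a step of under 0.01 above the value that the other 3 young kidneys shared.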

How the results depend on the processing

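No difference of the 9 genes changed sign in any of the 19 alternatives that gave it, and since the genes were picked on these values this is a description. Some alternatives could not change it. Each of the 9 had 1 probe set, so the t-test, the dim filter and the other choices of probe set repeated its difference exactly. Over all genes 367 passed by the methods' t-test with Benjamini-Hochberg adjustment, against 1339 in the limma fit given above. With the replicate number as a block 368 passed, and 528 to 1135 when 1 array was left out. Array weights gave 1591 of 19938 genes and the filter on dim genes 1580 of 13956. Without replicates 3 and 4 at 96 weeks 1025 of 19938 passed. Of the 9 retinoid genes, likewise as a description, the fit marked 5 with the replicate block and 3 to 4 when 1 array was left out. Of the other retinoid genes, of which 4 passed in the limma fit, 0 passed by the methods' t-test with Benjamini-Hochberg adjustment. With the replicate block 2 passed, without replicates 3 and 4 at 96 weeks 2, and when 1 array was left out 1 to 5. With array weights 6 passed, and without dim genes 6. Of the other aldehyde dehydrogenases 1 passed with array weights (Aldh2), 1 without dim genes (Aldh2), 3 without replicates 3 and 4 at 96 weeks (Aldh1l1, Aldh2 and Aldh4a1) and 0 to 1 when 1 array was left out. At the methods' own threshold on fold change and unadjusted p, their t-test called 257 genes, of the other retinoid genes 1 (Ces1d). The causes were not tested. Kidneys with the same replicate number showed little shared deviation (r of their deviations -0.04 to 0.08, against -0.09 to 0.06 for other pairs). The block was therefore not read as a pairing, and a shared batch or litter was not tested. Rbp4 had no value with the filter on dim genes.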
